A study of Mus musculus with 2 samples.

Results

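The matrix metalloproteinases described here are 10 genes named as a fibroblast set, the stromelysin genes Mmp3 and Mmp10, stromelysin-3 (Mmp11), the gelatinase genes Mmp2 and Mmp9, the collagenase gene Mmp13, the membrane type genes Mmp14 and Mmp15, and Mmp19 and Mmp23. They were found by the gene name that the array files give each probe, which returned 12 probes for the 10 genes, of 19698 genes named on the array. The cells were NIH3T3, an established mouse embryonic fibroblast line, stably transfected under G418 selection with the plasmid pcDNA3.1 carrying MARVELD1 or with the empty pcDNA3.1 vector. Each group was measured on 1 Agilent single-colour whole-genome array of Cy3-labelled total RNA. How many stable clones each RNA came from is not given in the sources used here, and no untransfected cells are among the samples.

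Matrix metalloproteinases are zinc-dependent endopeptidases that cleave collagens, proteoglycans and adhesive glycoproteins of the extracellular matrix. Most are secreted as inactive proenzymes whose propeptide has to be removed by plasmin, furin or another metalloproteinase, whereas the membrane types act at the cell surface. In fibroblasts the gelatinase Mmp2 and its activator Mmp14 are typically expressed constitutively, and stromelysins and collagenases are typically induced by cytokines, growth factors and stress through AP-1, the Fos and Jun transcription factor family.

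With 1 array per group there are no biological replicates, so no test between groups can be made and a difference of 2-fold is used below only as a limit of size. The processed intensities had 75th percentiles of 703.3 on the array labelled MARVELD1 and 768.1 on the empty vector array, and log2 differences were taken after dividing each array by its own. The median log2 difference of 16532 detected genes was 0.19 in this scaling. The Marveld1 probe A_52_P541175 read 6293 on the array labelled MARVELD1 and 8725 on the empty vector array, and the probe A_51_P158814 read 126.4 and 184.4 on these arrays. Both were lower on the array labelled MARVELD1, and whether they lie within the plasmid's insert was not analysed here. Every direction below therefore rests on the label. Of 9 fibroblast markers 8 were above background and Fap was not on either array. By their brightest probes 6 of the 8 had log2 differences below 0 (34.3% of all detected genes), with a median of -0.44, beside 0.19. Pdgfrb was past 2-fold lower (4.30-fold). By dimmer probes Thy1 (-1.61) and Col1a1 (-1.60) were also past 2-fold lower, while another Col1a1 probe stood at -0.33 and a dimmer Pdgfra probe at 0.03. The summed intensity of the 8 by their brightest probes was 558979 on the array labelled MARVELD1 and 671724 on the empty vector array. Summed intensities here and below were not divided by the 75th percentiles, so they are not on the scale of the log2 differences. All 5 macrophage markers were above background on at least 1 array. By their brightest probes 0 passed 2-fold higher (5.38% of all detected genes) or lower (3.51%). Their median log2 difference was 0.47, beside 0.19, with Itgam entered at its bound. The lowest log2 difference was that of Csf1r (-0.29), at 502.1 on the array labelled MARVELD1 and 670.5 on the empty vector array. Among those above background on both arrays the highest was that of Cd68 (0.55), at 351.5 and 262.6 on these arrays. Itgam read 54.5 on the array labelled MARVELD1 and was not above background on the empty vector array (42.1), a bound of 0.50. Dimmer Csf1r probes gave a bound of 1.33, above background only on the array labelled MARVELD1, and a log2 difference of -0.17. Ptprc read 52.2 on the array labelled MARVELD1 and 41.1 on the empty vector array. The lowest intensities called above background were 38.1 on the array labelled MARVELD1 and 36.6 on the empty vector array. The summed intensity of the macrophage markers, likewise not scaled, was 1074 on the array labelled MARVELD1 and 1122 on the empty vector array. Of the 5, 4 had log2 differences above 0 (65.7% of all detected genes) and 1 below (34.3%). Of 4 epithelial markers, Epcam and Cdh1 were not above background on either array. Krt8 had a log2 difference of 0.08 by its brighter probe. The dimmer Krt8 probe read 126.4 on the array labelled MARVELD1 and was not above background on the empty vector array (49.8), a bound of 1.47. Krt18 read 78.7 on the array labelled MARVELD1 and was not above background on the empty vector array (19.4), which makes it at least 2.35-fold higher. The epithelial median was 0.65, and the summed intensity of the detected markers was 289.9 on the array labelled MARVELD1 and 238.2 on the empty vector array. By their brightest probes the 4 endothelial markers had 0 past 2-fold higher (5.38% of all detected genes) or lower (3.51%). They ran from Cdh5 at -0.74 to Pecam1 at a bound of 0.36. Of the 4, 3 lay above 0 (65.7% of all detected genes), with a median of 0.25, beside 0.19. The brightest probes of the 4 summed to 1224 on the array labelled MARVELD1 and 1750 on the empty vector array. A dimmer Cdh5 probe read 52.2 on the array labelled MARVELD1 and 190.0 on the empty vector array, a log2 difference of -1.74. The part of these markers in the differences below was not tested.

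The probes that carry the main differences are 60 bases long, and the first 30 bases of each are shown so that the transcript stretches read here can be recognised. Coordinates are as deposited, in build mm9, and all 5 probes read the forward strand. Their place relative to exons was not analysed here.
Mmp3, probe A_51_P255699, chr9:7455751-7455810: ctttgtgaaaggaagtgctttgttcagcat
Mmp10, probe A_51_P120830, chr9:7510011-7510070: acaaccctgtaaaatgagtctcatgacttc
Mmp2, probe A_51_P341736, chr8:95376840-95376899: gttcttcaacatctatgacctttttatggc
Mmp14, probe A_52_P304128, chr14:55058775-55058834: ggacagcgagtaccctaaaaacatcaaagt
Mmp14, probe A_51_P216303, chr14:55059969-55060028: aaaggaatcttaagagtgtacatttggagg
Mmp3 and Mmp10 are close paralogs, and their whole probes share no run longer than 5 bases. Probes were compared only with probes here. Whether a probe matches the transcript of another gene was not analysed. None of the 12 probes shares a run of 20 bases with any other probe on the array, with 0 such matches for each. The longest run that a member's probe shares with a probe of another Mmp gene is 10 bases, between Mmp13 and Mmp8.

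Of the 10 genes, 8 had a probe above background and 2, Mmp13 and Mmp15, did not on either array. Of these 8, 2 were at least 2-fold higher on the array labelled MARVELD1, where 5.38% of all detected genes were, and 0 were at least 2-fold lower, where 3.51% were, with Mmp14 represented by the probe that is brighter on average in log2. The 2 were the stromelysin genes. Of the 8, 4 had log2 differences above 0 (Mmp3, Mmp10, Mmp9, Mmp23) and 4 below (Mmp2, Mmp14, Mmp11, Mmp19), while 65.7% of all detected genes lay above 0 and 34.3% below. This split takes each sign as read, though the differences of Mmp19 and Mmp23 lie within their spot error, given below. The median log2 difference of the 8 was 0.10, against 0.19 over all detected genes. With a limit of 1.5-fold, 3 members were higher (19.4% of all detected genes) and 1 lower (8.86%), and with a limit of 3-fold, 2 were higher (1.21%) and 0 lower (1.28%).

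**Figure D1:**
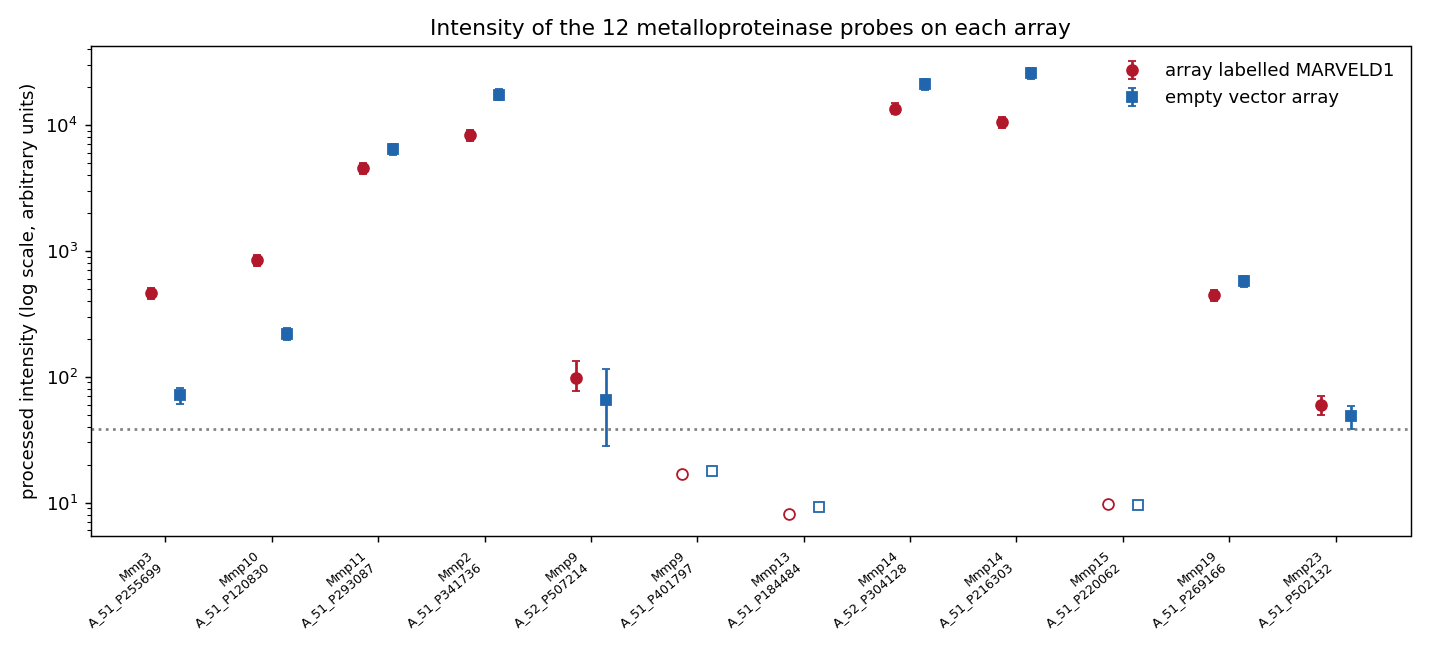
Processed intensity (arbitrary units, log axis) of each of the 12 probes on the array labelled MARVELD1 (circles) and the empty vector array (squares). Filled symbols are above background, open symbols are not, and the dotted line is the higher of the lowest above-background intensities (38.1). Error bars are the scanner program's own error for probes with 1 spot and the range of usable spots for the repeated Mmp9 probe. Mmp3 and Mmp10 stand higher on the array labelled MARVELD1, Mmp2 and both Mmp14 probes lower.

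The stromelysins had the largest differences among the 8 detected members. Mmp3, stromelysin-1, which cleaves proteoglycans, fibronectin and laminin and activates other proenzymes, read 458.7 ± 46.5 on the array labelled MARVELD1, against 71.3 ± 10.5 on the empty vector array, where the error is the scanner program's estimate for 1 spot. Its log2 difference was 2.81, or 7.02-fold higher, with a technical SD of 0.52. The technical SD is the spread of repeated spots of like brightness within each array. It leaves out any difference between cultures, labellings or hybridizations. Relative to the median of all detected genes the log2 difference of Mmp3 was 2.62. On the array labelled MARVELD1 the probe stood at percentile 70.6 of all probes, and on the empty vector array at percentile 40.2. Mmp3 stood at rank 32 from the highest of the 16532 detected genes.

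Mmp10, stromelysin-2, a close relative of Mmp3 with overlapping substrates, read 837.5 ± 84.2 on the array labelled MARVELD1 and 220.2 ± 23.7 on the empty vector array. This gave a log2 difference of 2.05, or 4.15-fold higher, with a technical SD of 0.35, and rank 93 from the top. The log2 differences of Mmp3 and Mmp10 differed from each other by 0.76, with a technical SD of 0.63, so the spot error does not separate them.

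Mmp11 carries the name stromelysin-3, but it is activated inside the cell by furin and has weak activity on matrix proteins, and its value went the other way from Mmp3 and Mmp10. It read 4538 ± 454 on the array labelled MARVELD1 and 6434 ± 643 on the empty vector array, a log2 difference of -0.38 with a technical SD of 0.17, or 1.30-fold lower. The log2 difference of Mmp3 exceeded that of Mmp11 by 3.19, and that of Mmp10 exceeded it by 2.43, with technical SDs of 0.55 and 0.39. These contrasts within an array pair do not depend on a scaling factor applied to a whole array.

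**Figure D2:**
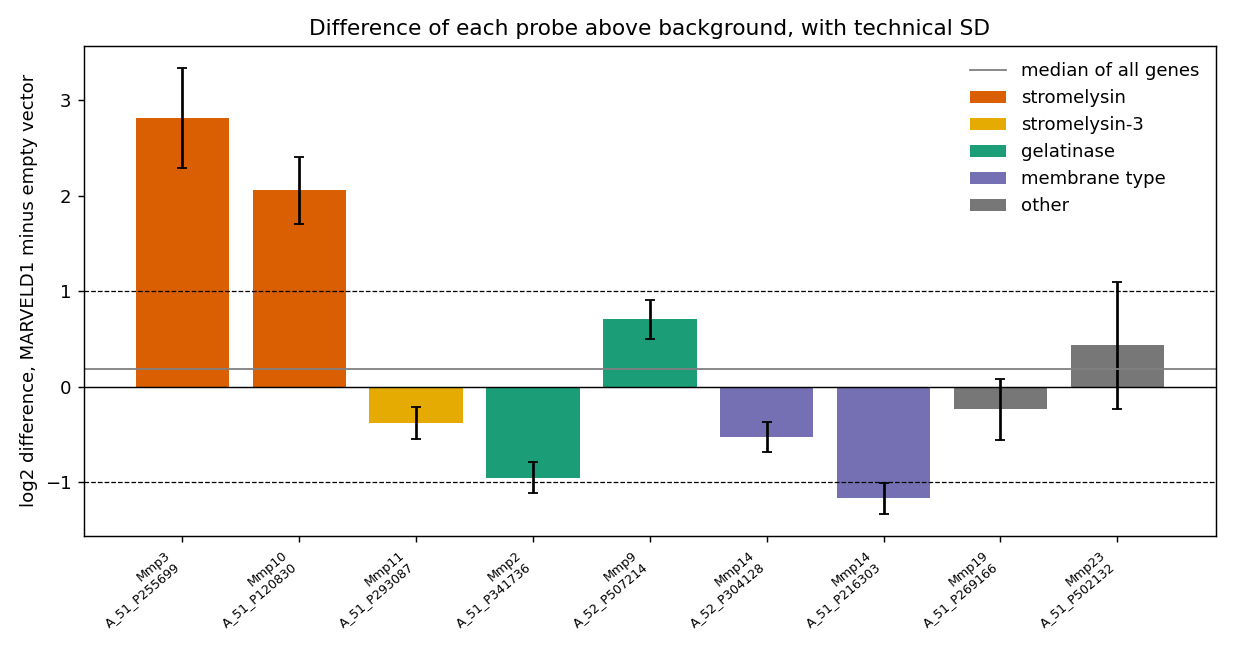
Log2 difference (MARVELD1 minus empty vector) of each probe above background, coloured by enzyme class, with the technical SD from repeated spots as error bars. Dashed lines mark 2-fold and the grey line the median of all detected genes (0.19). Both stromelysin bars stand above 2, whereas Mmp2 and both Mmp14 probes stand below 0.

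Mmp2, gelatinase A, cleaves denatured collagen and type IV collagen of basement membranes, and it is the gelatinase that resting fibroblasts secrete. Its probe read 8248 ± 825 on the array labelled MARVELD1, against 17408 ± 1741 on the empty vector array. The log2 difference was -0.95 with a technical SD of 0.16, or 1.93-fold lower, and -1.14 relative to the median of all detected genes. It passed 2-fold lower in 5 of 7 scalings and background corrections, between -0.91 and -1.20, and was lower in all 7. Mmp2 stood at rank 633 from the lowest of 16532 genes. A probe named TC1657722, A_52_P966930 (chr8:95376491-95376550), which the files place on the reverse strand 349 bases before the start of the Mmp2 probe, read 130.6 on the array labelled MARVELD1 and 92.0 on the empty vector array, a log2 difference of 0.63.

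Mmp14, the membrane type enzyme that cuts the propeptide of Mmp2 at the cell surface in a complex with Timp2, was lower by both probes but not equally. The probe A_52_P304128 read 13470 ± 1347 on the array labelled MARVELD1 and 21182 ± 2118 on the empty vector array, a log2 difference of -0.53 with a technical SD of 0.16, or 1.44-fold lower. The probe A_51_P216303, which starts 1194 bases further along the strand, read 10461 ± 1046 on the array labelled MARVELD1 and 25641 ± 2564 on the empty vector array, a log2 difference of -1.17 with a technical SD of 0.16, or 2.24-fold lower. The downstream minus the upstream log2 difference was -0.64, beyond the joint technical SD of 0.23. The downstream probe was past 2-fold lower in 7 of 7 scalings and background corrections and the upstream one in 0 of 7. Which probe stands for the gene therefore decides whether Mmp14 counts as 2-fold lower.

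Mmp2 and its activator Mmp14 were thus both lower. Mmp2 minus the representing (upstream) Mmp14 probe gave -0.42 on the log2 scale, with a technical SD of 0.23, whereas Mmp2 minus the downstream probe gave 0.22, with a technical SD of 0.23. The sign thus turned with the probe, and 0.22 lies within its technical SD, so which of them was lower by more is not settled. Against the stromelysins the gap was wide, with the log2 difference of Mmp3 exceeding that of Mmp2 by 3.76 and that of Mmp10 exceeding it by 3.01, with technical SDs of 0.54 and 0.39. Expressed as a ratio of ratios, Mmp3 was 13.6-fold and Mmp10 8.03-fold higher relative to Mmp2 on the array labelled MARVELD1 than on the empty vector array.

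Mmp9, gelatinase B, an inducible gelatinase of leukocytes and stimulated fibroblasts, is the only member with a probe that was printed 10 times on each array. After 1 outlier spot was left out on each array, the 9 usable spots of A_52_P507214 (chr2:164780620-164780679) ran from 76.9 through a median of 100.0 to 132.1 on the array labelled MARVELD1, and from 28.1 through a median of 69.1 to 114.5 on the empty vector array. All 9 were above background on the array labelled MARVELD1 and 7 of 9 on the empty vector array. The spots of both arrays overlapped. The log2 difference of the means was 0.71 or 1.63-fold higher, and its standard error of 0.23 comes from the spots alone. It was 0.37 when only spots above background on both arrays were used, and 0.29 in the authors' deposited table. The other probe, A_51_P401797 (chr2:164780303-164780362), read 17.0 on the array labelled MARVELD1 and 18.0 on the empty vector array and was not above background on either, so it gives no fold. The gelatinases did not differ alike, since the log2 difference of Mmp9 exceeded that of Mmp2 by 1.66, with a technical SD of 0.26.

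**Figure D3:**
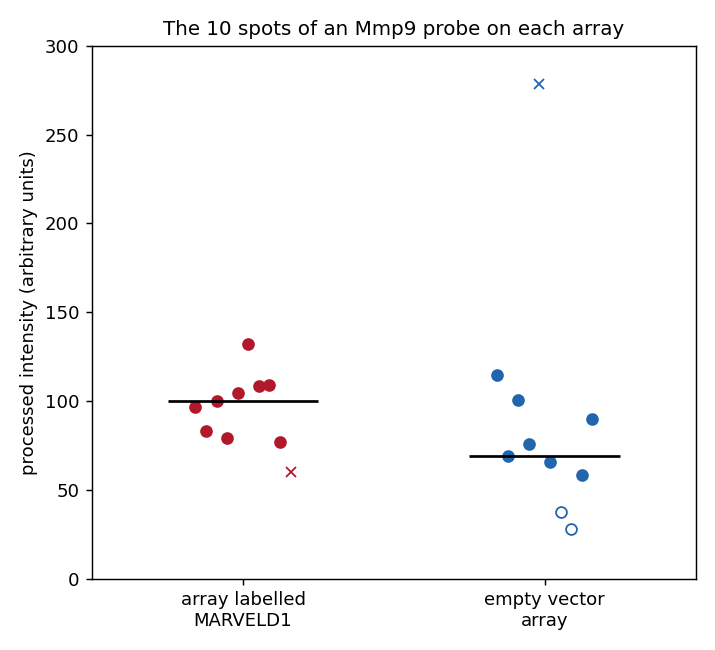
Processed intensity (arbitrary units) of the 10 spots of the Mmp9 probe A_52_P507214 on each array. Filled circles are above background, open circles are not, crosses are outlier spots left out (59.8 on the array labelled MARVELD1, 278.6 on the empty vector array), and bars are medians of the usable spots (100.0 and 69.1). The ranges of the arrays overlap.

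Mmp13, collagenase-3, the main interstitial collagenase of mice, was at the background. Its probe A_51_P184484 (chr9:7282762-7282821) read 8.18 on the array labelled MARVELD1, a surrogate value that the program puts in place of a very low reading, and 9.26 on the empty vector array. The spot before subtraction read 74.98 against a background of 72.9 on the array labelled MARVELD1, and 81.3 against 71.1 on the empty vector array. Of 153 negative control spots, 25.5% were dimmer on the array labelled MARVELD1 and 73.2% on the empty vector array. Mmp15, membrane type 2, likewise read a surrogate value of 9.76 on the array labelled MARVELD1 and of 9.53 on the empty vector array. No fold is given for either gene, and a difference between the groups was not detectable at this signal.

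Mmp19, an enzyme of basement membrane components, read 443.6 ± 45.2 on the array labelled MARVELD1 and 570.8 ± 57.6 on the empty vector array, a log2 difference of -0.24 that is within its technical SD of 0.32. Mmp23, whose product is anchored in the membrane by its propeptide and released by furin-like cleavage, was dim. It read 60.0 ± 10.5 on the array labelled MARVELD1 and 48.5 ± 9.8 on the empty vector array, a log2 difference of 0.43 that is within its technical SD of 0.66. Given this spot error, the side of 0 on which either gene was counted above is not settled.

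Mmp3, Mmp10 and Mmp13 lie in a cluster of Mmp genes on chromosome 9, a feature the choice of members did not use. Of 10 genes listed for the cluster, 8 have probes here. In order along mm9 they are Mmp13, Mmp12, Mmp3, Mmp1a, Mmp10, Mmp8, Mmp20 and Mmp7, and Mmp1a, a mouse relative of interstitial collagenase, thus lies between the 2 genes that differ. Its probe A_51_P185688 read 114.8 on the array labelled MARVELD1 and 140.1 on the empty vector array (log2 difference -0.16), and its probe A_52_P549223 read 57.5 and 48.5 on these arrays (0.37). Mmp1a was therefore under 2-fold by either probe, with the signs opposed. Mmp12 and Mmp8 were not above background on either array. Mmp20 (0.30) and Mmp7 (-0.31) were detected but under 2-fold. Of 6 genes flanking the cluster, 0 passed 2-fold higher (5.38% of all detected genes) or lower (3.51%) by their brightest probe. They ran from Birc2 at -0.17 to Dcun1d5 at 0.79. Of the 6, 5 lay above 0 (65.7% of all detected genes), with a median of 0.41, beside 0.19 over all detected genes. The probes of Dync2h1 above background on both arrays were all higher, at 0.65, 1.43, 0.33 and 0.83 from the brightest to the dimmest, and a further probe above background only on the array labelled MARVELD1 gave a bound of 1.35. By its dimmer probes this flanking gene was thus past 2-fold in 2 cases.

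**Figure D4:**
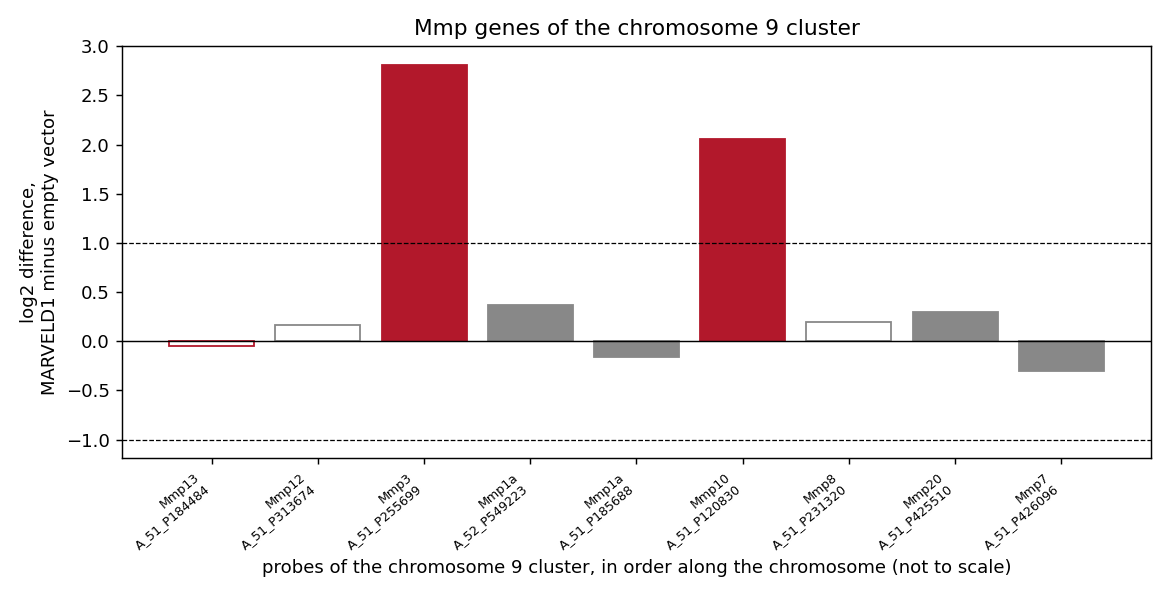
Log2 difference (MARVELD1 minus empty vector) of each Mmp probe of the chromosome 9 cluster, in order along the chromosome and not to scale. Red marks members and grey other Mmp genes; open bars are not above background on either array, and dashed lines mark 2-fold. Mmp3 and Mmp10 stand at 2.81 and 2.05, while the probes of Mmp1a between them stand at -0.16 and 0.37.

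Because Mmp3 and Mmp10 were higher together, the bases before their RefSeq starts were searched for 3 short motifs and compared with the other members. The motifs were TGANTCA, the letters of an AP-1 element, TATAAA, the letters of a TATA box, and GGGCGG, the letters of a GC box. Both strands of the 250 bases before each start were searched (RefSeq, GRCm38.p6). Of the 10 members 7 matched an entry, and 3 of these, Mmp3, Mmp10 and Mmp13, held both TGANTCA and TATAAA. Mmp2, Mmp9 and Mmp19 matched no entry and were not searched. Over all 32851 windows of 27025 genes, 6.75% held TGANTCA, 12.4% held TATAAA and 1.22% held both. The windows are shown with TGANTCA and TATAAA in capitals, Mmp14 as a member without either and Mmp1a as the neighbour between Mmp3 and Mmp10.
Mmp3, chr9:7445572-7445821, forward strand: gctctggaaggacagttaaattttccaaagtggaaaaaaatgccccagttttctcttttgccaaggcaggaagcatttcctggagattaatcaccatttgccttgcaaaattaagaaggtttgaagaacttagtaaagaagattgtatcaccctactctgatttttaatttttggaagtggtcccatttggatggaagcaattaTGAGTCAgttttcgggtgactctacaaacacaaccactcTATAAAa
Mmp10, chr9:7502092-7502341, forward strand: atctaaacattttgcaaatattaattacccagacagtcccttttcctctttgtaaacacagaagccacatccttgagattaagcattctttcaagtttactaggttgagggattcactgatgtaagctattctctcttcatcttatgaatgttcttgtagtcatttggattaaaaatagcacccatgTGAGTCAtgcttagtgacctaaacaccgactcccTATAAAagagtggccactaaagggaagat
Mmp13, chr9:7272264-7272513, forward strand: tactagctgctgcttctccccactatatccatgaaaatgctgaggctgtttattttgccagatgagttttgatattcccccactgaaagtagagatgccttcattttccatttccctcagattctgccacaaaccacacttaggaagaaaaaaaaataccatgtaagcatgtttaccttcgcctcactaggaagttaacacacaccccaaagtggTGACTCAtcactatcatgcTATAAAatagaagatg
Mmp1a, chr9:7463891-7464140, forward strand: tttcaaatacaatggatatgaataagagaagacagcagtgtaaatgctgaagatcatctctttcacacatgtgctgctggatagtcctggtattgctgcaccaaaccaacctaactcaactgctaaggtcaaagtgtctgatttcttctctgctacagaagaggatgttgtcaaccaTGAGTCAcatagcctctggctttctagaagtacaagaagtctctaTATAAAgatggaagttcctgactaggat
Mmp14, chr14:54431348-54431597, forward strand: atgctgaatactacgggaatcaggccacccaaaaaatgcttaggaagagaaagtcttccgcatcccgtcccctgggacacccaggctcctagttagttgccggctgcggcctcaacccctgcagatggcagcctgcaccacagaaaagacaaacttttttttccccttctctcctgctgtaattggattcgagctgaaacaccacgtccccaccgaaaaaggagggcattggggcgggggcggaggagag
The motif TGANTCA began 46 bases before the start in Mmp3, 63 in Mmp10 and 35 in Mmp13, and the TATAAA followed it 7, 29 and 16 bases before the start. Mmp1a held the same pair at 73 and 28 bases. The pair was thus present before genes that were higher (Mmp3, Mmp10), one that was not above background (Mmp13) and neighbours that were detected and under 2-fold (Mmp1a, Mmp7 and Mmp20). In the cluster 8 of 10 genes held TGANTCA and 7 held TATAAA in at least 1 window. The windows of Mmp11, Mmp14 and Mmp15 instead held GGGCGG, the letters of a GC box, which 32.7% of all windows hold, and that of Mmp23 held none of the 3 motifs. A match is only a run of letters and does not show that a factor binds there.

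Transcription factors known to act on Mmp promoters formed a list of 14 genes, all above background. Their median log2 difference was 0.16, beside 0.19 over all genes. Of the 14, 0 were at least 2-fold higher (5.38% of all detected genes) and 1 lower (3.51%). The 1 was Fos, a subunit of AP-1, at 58.8 on the array labelled MARVELD1 and 161.0 on the empty vector array, 2.51-fold lower. Other AP-1 genes were under 2-fold: Junb had log2 differences of 0.75 and 0.70 by its 2 probes, Fosl1 0.70, Jun 0.59, Fosb 0.51 and Jund -0.49. Among 15 inducers of fibroblast metalloproteinases and their receptors, 13 were detected, and the median was 0.19, beside 0.19 over all genes. By their brightest probes 1 was higher (5.38% of all detected genes) and 1 lower (3.51%) past 2-fold. The higher one was Hbegf, an EGF receptor ligand, at 3752 on the array labelled MARVELD1 and 1103 on the empty vector array. The lower one was the PDGF receptor gene Pdgfrb, at 3977 on the array labelled MARVELD1 and 18671 on the empty vector array. The receptor gene Osmr had log2 differences of 0.30 by its brighter probe and -1.29 by its dimmer one. The cytokine genes Il1a and Il1b were not above background on either array, and Il6 had a log2 difference of -0.81.

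Activators of the proenzymes and proteins that clear or anchor them formed a list of 13 genes, of which 12 were detected. The median log2 difference of these was 0.43, beside 0.19 over all detected genes. By their brightest probes 2 were at least 2-fold higher (5.38% of all detected genes) and 0 lower (3.51%). The 2 were Plau and Plaur, the urokinase gene and the gene of its receptor, which generate plasmin at the cell surface. Plaur read 19303 on the array labelled MARVELD1 and 7561 on the empty vector array by its brighter probe, 2.79-fold higher, while by the dimmer probe the log2 difference was 0.69. Plau read 135.5 on the array labelled MARVELD1 and 71.7 on the empty vector array, 2.06-fold higher, and 0.82 on the log2 scale by its dimmer probe. Plat, the gene of the other plasminogen activator, was lower, with log2 differences of -0.65 by its brightest probe and -1.20 by the next. Furin, the convertase that activates Mmp11 and Mmp14, had log2 differences of 0.43 and 0.34 by its 2 probes.

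Of 7 inhibitor genes, all detected, 0 were at least 2-fold higher (5.38% of all detected genes) and 2 lower (3.51%). Their median log2 difference was 0.14, beside 0.19 over all detected genes. Timp3, the inhibitor that stays bound to the matrix, read 79.7 on the array labelled MARVELD1 and 2147 on the empty vector array, and Reck, a membrane-anchored inhibitor, read 595.0 and 1416 on these arrays. Timp2, which inhibits Mmp2 and also bridges it to Mmp14, read 16595 on the array labelled MARVELD1 and 27692 on the empty vector array, a log2 difference of -0.61. Timp1, an inducible inhibitor, had log2 differences of 0.95 and 0.38 by its 2 probes.

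Apart from Mmp17, no probe of the other Mmp genes outside the fibroblast set read above 184.5 on either array. Of 11 on the array, 8 were detected, 0 were at least 2-fold higher (5.38% of all detected genes) and 0 lower (3.51%). Their median log2 difference was -0.15, beside 0.19 over all detected genes. The highest was Mmp24, a membrane type enzyme, at 0.70 (126.2 on the array labelled MARVELD1, 85.1 on the empty vector array), and the lowest Mmp16, another membrane type enzyme, at -0.64 (106.3 on the array labelled MARVELD1, 181.6 on the empty vector array). Mmp17, anchored to the membrane by a glycolipid, was the brightest probe among them, at 464.7 on the array labelled MARVELD1 and 555.5 on the empty vector array. All 16 genes for metalloproteinase substrates of the fibroblast matrix were detected. Their median was -0.36 and 13 of 16 lay below 0, beside 34.3% of all detected genes. By their brightest probes 0 were higher (5.38% of all detected genes) and 3 lower (3.51%) past 2-fold. The 3 were Lama4, a laminin chain, at 3.07-fold, the type III collagen gene Col3a1 at 2.94-fold (-0.10 on the log2 scale by a dimmer probe) and the fibronectin gene Fn1 at 2.18-fold lower. By dimmer probes Col1a1 (-1.60) and Col4a2 (-1.60) were also past 2-fold lower, while another Col1a1 probe stood at -0.33. Col1a1 and Col1a2 are in this list and among the fibroblast markers above, of which 6 of 8 were below 0.

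**Figure D5:**
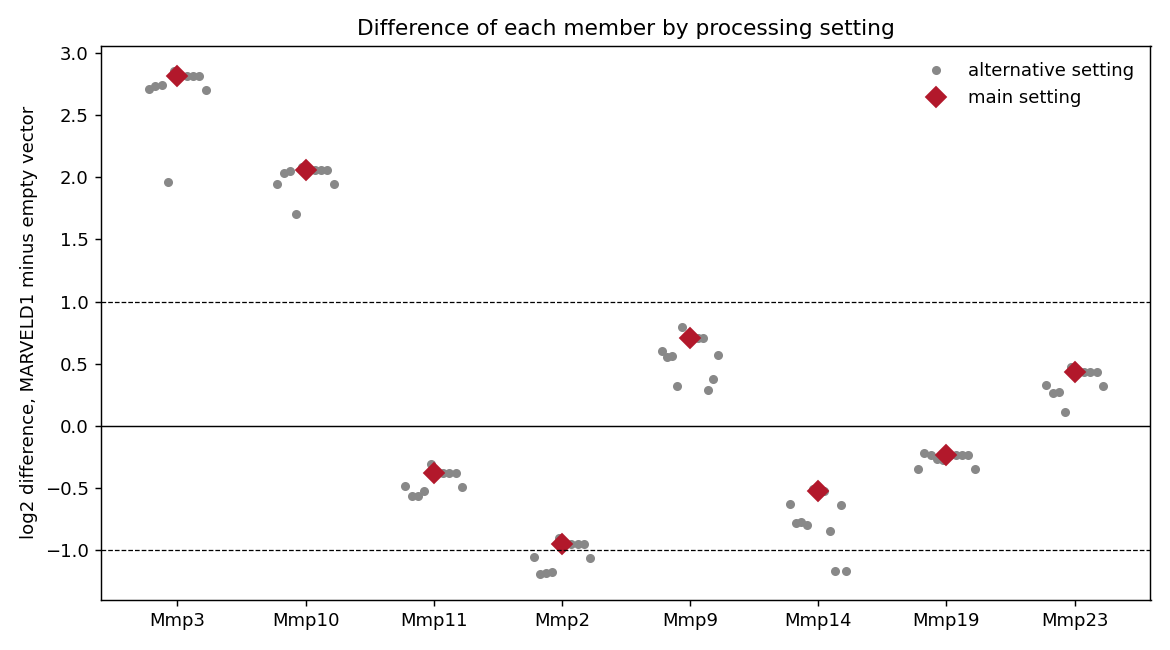
Log2 difference (MARVELD1 minus empty vector) of each detected member in the main setting (diamonds) and under the alternative settings (grey points); dashed lines mark 2-fold. Mmp3 (1.96 to 2.85) and Mmp10 (1.70 to 2.08) stayed past 2-fold in every setting shown, Mmp2 (-1.20 to -0.91) and Mmp14 (-1.17 to -0.50) lay on both sides of 2-fold lower.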

How the data were processed

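The deposited scanner files give the fluorescence intensity of each spot, read with Agilent Feature Extraction 9.5.3.1 per the file headers, background-subtracted and detrended by that program with no scaling between arrays. Both arrays lay on 1 slide, at positions 4 (MARVELD1) and 3 (empty vector). The authors' deposited table holds normalized intensity for 26851 probes, each column being the processed intensity divided by 1 factor (99.7% of values within 1%); how its probes were filtered is not given in the sources used here.

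Outlier spots were left out (223 of 43379 on the array labelled MARVELD1, 116 on the empty vector array), and 0 spots were saturated on either. Each processed intensity was divided by its array's 75th percentile, put on the log2 scale and averaged where a probe was repeated. A probe counted as above background where at least 50% of its usable spots were called well above background. A gene was represented by its brightest probe above background on at least 1 array. Non-member genes were named through RefSeq (GRCm38.p6). Where only 1 array was above background, the bound against the lowest intensity above background was used. Technical SDs come from the 50 repeated probes nearest in brightness, of 234 with at least 8 usable spots on each array. The steps were tested on simulated data. Tools were Python 3.11.15 and limma 3.58.1 in R 4.3.3.

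The members, lists, alternatives and the rule for named genes (every member probe, and of each list the genes past 2-fold, otherwise the highest and lowest) were chosen with earlier results of these data known; further list genes were named after their values were seen. The alternatives were other scalings (array median, quantile, loess with span 0.3), normexp with offset 50, background-subtracted signal, other filters and probe choices, the authors' table, and limits of 1.5-fold and 3-fold.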

Additional observations from a re-analysis of the deposited data

How the results depend on the processing

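Mmp3 and Mmp10 were the 2 members past 2-fold higher under all 10 alternatives of scaling, background, filter, probe choice and table, of which 4 (filters and probe choices) leave the values of Mmp3 and Mmp10 as they are by construction, and with a limit of 3-fold; with 1.5-fold the count was 3, with Mmp9. The count past 2-fold lower, 0 in the main setting, became 1 with quantile normalization, loess, array-median scaling, normexp (followed by quantile normalization) and in the authors' deposited table (Mmp2 in each), and 1 with the most 3-prime probe, with the Mmp14 probe of larger difference (an alternative added after seeing the data) and with a 1.5-fold limit (Mmp14, Mmp14 and Mmp2). The median of the detected members ran from -0.08 with normexp to 0.10 in the main setting, and so changed sign. The median of all genes was 0.19 in the main setting and 0.08 with scaling to the array median. Normexp lowered the difference of Mmp3 to 1.96 and of Mmp10 to 1.70; its offset of 50 adds to dim signals by construction. None of the 8 detected members changed sign under any of these alternatives. Mmp9, at 0.29 to 0.80, was 0.37 with only the spots above background on both arrays, an alternative added after seeing the data. Leaving out a replicate was not possible with 1 array per group. No paired analysis was possible because each group holds 1 array. Mmp13, Mmp15 and 1 Mmp9 probe were limited by background.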
